A study of Homo sapiens with 23 samples.

Results

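The proteasome subunit genes were taken from the RNA table of MCF10A lines as the rows whose gene symbol is PSMA, PSMB, PSMC or PSMD followed by a number. This rule found 39 of 58358 genes, and 36 of them had a log2(TPM+1) of 1 or more in at least 3 lines, the filter that 14884 genes of the whole table passed. TPM, transcript abundance scaled to 1 fixed total in each library, is a level per transcript length, so that genes can be ordered by it. PSMA8, PSMB11 and PSMC1 did not pass.

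The study asked how 10 missense mutants of p53 differ in what they do to a non-transformed mammary epithelial line, MCF10A, and 1 RNA library per line was sequenced for 13 untreated lines. Each mutant was carried on a lentiviral pLenti4/V5-DEST vector with a V5 tag at the C-terminus, in cells that keep their own wild-type copy. The contact mutant lines, whose changed residue touches DNA, were R248Q, R248W, R273C and R273H (n = 4), and the structural mutant lines were G245S, H179R, R175H, Y163C, Y220C and Y234C (n = 6). The control lines (n = 3) were WT, with no change of p53, WTKD, with wild-type p53 knocked down by shRNA, and WTOE, with V5-tagged wild-type p53 from another vector, pLX304. V5 ChIP-seq peak lists against input DNA were given for Y220C, R273C, R273H, Y234C and WTOE, 1 list each. No line had a second library, so every p-value below measures the spread between lines, and in WTOE the vector and the p53 protein cannot be told apart. No control line is stated to carry the vector of the mutants. In mutant versus control lines the vector, the added p53 and the mutation thus cannot be told apart. In bulk RNA, fewer cells with a transcript and less transcript per cell cannot be told apart either.

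The proteasome is the large protease that degrades ubiquitin-tagged proteins. Its 20S core is a stack of outer rings of alpha subunits, which gate entry, and inner rings of beta subunits, of which PSMB6 (beta1), PSMB7 (beta2) and PSMB5 (beta5) cut peptide bonds. Interferon signalling replaces these with PSMB9, PSMB10 and PSMB8, which form the immunoproteasome and change the peptides made for HLA class I. The 19S cap holds a ring of ATPases, PSMC1 to PSMC6, that unfold and feed the substrate, and non-ATPase PSMD subunits that bind and strip ubiquitin. When the proteasome is impaired, the transcription factor NFE2L1 raises the mRNA of most subunits together.

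WTOE stands below for the library labelled so. R273H and Y234C stood apart from the other 11 lines in the median level and in the share of the highest genes. The median of all tested genes was 2.85 in R273H and 2.63 in Y234C on the log2(TPM+1) scale, against 3.47 to 3.85 in the others. The 50 highest genes took 37.4% of all TPM in R273H and 46.8% in Y234C, against 27.1 to 33.6% in the others. Genes with a value above 0 were few in WT as well. They numbered 12122 in R273H, 12284 in WT and 12409 in Y234C, against 13080 to 15975 in the others. The differences and correlations that R273H and Y234C moved most are given with and without them. Of the basal epithelial markers, all 10 passed the filter in these mammary cells, with summed TPM of 3102 to 4830 in the control, 1346 to 2609 in the contact mutant and 2129 to 5113 in the structural mutant lines. Of the 5 blood cell markers, 1 passed the filter, CD14, at 0 to 5.64 with its highest level in WT. The summed TPM of these markers was 4.62 to 48.9 in the control, 0 to 10.7 in the contact mutant and 2.59 to 25.6 in the structural mutant lines, and the defining PTPRC and CD3E were listed at 0 in every line.

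The promoters of 2 members are shown first, because a deposited V5 peak lay over each start site. The sequences are the 250 bases before the RefSeq start (GRCh38.p14), 5′ to 3′ on the gene's strand, and capitals mark the part inside the peak.
PSMD12 promoter, chr17:67366578-67366827, minus strand: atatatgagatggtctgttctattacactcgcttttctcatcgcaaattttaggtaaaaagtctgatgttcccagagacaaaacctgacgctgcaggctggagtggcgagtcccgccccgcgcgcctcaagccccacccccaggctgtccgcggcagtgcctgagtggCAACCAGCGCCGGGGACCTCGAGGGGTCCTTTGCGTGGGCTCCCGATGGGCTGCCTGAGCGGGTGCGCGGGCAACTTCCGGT
PSMD1 promoter, chr2:231056617-231056866, plus strand: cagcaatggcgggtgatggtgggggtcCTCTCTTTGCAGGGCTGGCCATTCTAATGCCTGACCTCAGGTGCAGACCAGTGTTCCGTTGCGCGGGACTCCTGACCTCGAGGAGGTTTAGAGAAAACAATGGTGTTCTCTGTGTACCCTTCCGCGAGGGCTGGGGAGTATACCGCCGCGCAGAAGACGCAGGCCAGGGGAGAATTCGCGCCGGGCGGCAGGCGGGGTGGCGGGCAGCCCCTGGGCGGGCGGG
The PSMD12 peak came from the V5-tagged wild-type p53 of WTOE and the PSMD1 peak from R273H. PSMD12 and PSMD1 code for 19S non-ATPase subunits, PSMD12 of the lid and PSMD1 of the base.

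The promoters of the constitutive beta5 gene and of 2 immunoproteasome genes are shown next, since the levels of these sets lay far apart. Here capitals mark CCAAT, the box bound by NF-Y, and TGACNNNGC, the core of the antioxidant response element that NFE2L1 and NFE2L2 bind, on either strand.
PSMB5 promoter, chr14:23035221-23035470, minus strand: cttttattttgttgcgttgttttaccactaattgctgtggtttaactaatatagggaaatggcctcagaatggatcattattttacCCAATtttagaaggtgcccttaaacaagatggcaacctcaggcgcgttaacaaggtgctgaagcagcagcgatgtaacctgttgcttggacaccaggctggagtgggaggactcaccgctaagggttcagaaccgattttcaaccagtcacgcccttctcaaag
PSMB8 promoter, chr6:32844680-32844929, minus strand: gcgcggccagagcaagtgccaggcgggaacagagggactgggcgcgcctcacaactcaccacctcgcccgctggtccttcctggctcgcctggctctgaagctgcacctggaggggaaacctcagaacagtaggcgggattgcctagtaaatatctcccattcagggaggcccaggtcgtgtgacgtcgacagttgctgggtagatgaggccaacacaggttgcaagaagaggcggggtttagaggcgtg
PSMB9 promoter, chr6:32853942-32854191, plus strand: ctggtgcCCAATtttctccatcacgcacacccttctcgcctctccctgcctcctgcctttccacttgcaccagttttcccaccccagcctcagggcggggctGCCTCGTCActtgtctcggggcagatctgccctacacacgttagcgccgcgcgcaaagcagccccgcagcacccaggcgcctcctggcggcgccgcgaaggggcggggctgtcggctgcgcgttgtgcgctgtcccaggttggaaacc
PSMB5 held a CCAAT, PSMB9 held a CCAAT and a TGACNNNGC, the latter on the minus strand, and PSMB8 held neither in these letters. A match is a description of the letters and not a bound site.

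RefSeq promoters of 300 bases, which run 50 bases past the start, were matched for 34 of the 39 members and 27305 genes in all, and the first promoter listed for each gene was counted. Over both strands, CCAAT was found in 17 of the 34 and in 35.7% of all promoters. The core TGACNNNGC was found in 8 members, PSMD1, PSMB9, PSMD5, PSMD9, PSMB3, PSMD3, PSMD12 and PSMC4, and in 13.6% of all promoters. The ETS-type letters CGGAAG were in 20 members and 19.9% of all promoters, or 33.8% of the promoters of tested genes. The GC box GGGCGG was in 22 members and 44.6% of all promoters, or 70.5% of the promoters of tested genes. An interferon-type pattern, TTTC and TTTC with 2 free bases between, was in 3 members, PSMB4, PSMA4 and PSMB10, and 3.65% of all promoters, and the STAT-type letters TTCNNNGAA in 4 members and 7.88%. Further RefSeq promoters, not in these counts, were listed for PSMD2, PSMB8, PSMB5, PSMA6, PSMA4 and PSMC5. That of PSMB8 (chr6:32843998-32844297) held the interferon-type pattern and TTCNNNGAA, those of PSMD2 and PSMB5 held TTCNNNGAA, and one each of PSMA4 and PSMC5 held TGACNNNGC. A p53 decamer was found in PSMA2, PSMD13 and PSMB10, 3 of the 34, and in 6.54% of all promoters. GGGCGG and CGGAAG can lie beside each other, and no motif was searched outside these promoters.

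The members were spread over 16 chromosomes. Chromosomes 14 and 17 held 6 each, and 4 lay on chromosome 1. PSMB8 (chr6:32840717-32844679) and PSMB9 (chr6:32844136-32859851) lay on opposite strands with overlapping annotated exons in GENCODE v44 (GRCh38), in the histocompatibility region that also holds TAP1 and TAP2. PSMB5 (chr14:23016543-23035230) and the thymus subunit PSMB11 (chr14:23042212-23044060) were neighbours on chromosome 14.

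Proteasome subunits were among the more abundant mRNAs of these cells. The median of the 36 member means was 6.86 on the log2(TPM+1) scale, against 3.37 for all tested genes. The alpha subunit PSMA7 was highest, at 9.85 ± 0.43 (SD over 13 lines), followed by PSMB7 at 9.07 ± 0.63 and PSMB5 at 9.0 ± 0.72. These neighbours in the order differed by less than their SDs in the case of PSMB7 and PSMB5, and PSMA7 lay above PSMB7 by more than either SD. The lowest members that passed were PSMB10 at 1.03 ± 1.16, PSMB9 at 1.05 ± 1.03 and PSMA6 at 1.99 ± 1.02. The members' median SD over lines was 0.71, beside 0.95 for all tested genes and 0.70 for the 4031 genes whose mean was 5 or more. Spread was largest for PSMB6 (SD 1.42), PSMB10 (1.16) and PSMA4 (1.04) and smallest for PSMC5 (0.37), PSMB4 (0.38) and PSMD3 (0.39).

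The deposited level of some members may not stand for the level of their transcript, since their sequence is also annotated in other genes. Words of 75 bases, the read length of the study, were taken from the transcript that Ensembl marks as canonical. Of these, 97.6% were also in other genes for PSMC1, in NRDE2 and PSMC1 pseudogenes among others. The share was 100% for PSMA2, with the readthrough gene AC010132.3, 84.0% for PSMA6, 58.4% for PSMA1, 44.8% for PSMD7 and 44.4% for PSMB10. For PSMD9 it was 18.6%, for PSMC6 15.7% and for PSMD4 11.9%, and it was 0 for most members. These members included the lowest alpha subunits, PSMA6 and PSMA2 (3.35 ± 0.86), although all alpha subunits stand in equal number in the ring. PSMC1, whose protein is a fixed part of the ATPase ring, was listed at 0 in 9 lines and at 0.95 in WT, 0.68 in Y163C and 0.16 in both R248Q and R248W. The part of shared sequence in these levels was not tested. PSMA8, a testis subunit, and PSMB11, the thymus subunit, were listed at 0 in all 13 lines and had no shared words.

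**Figure D1:**
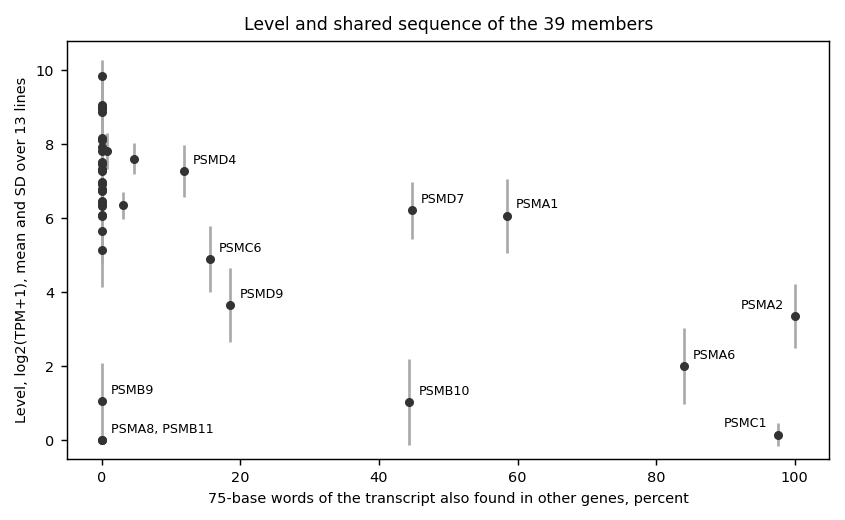
Mean log2(TPM+1) over 13 lines, with the SD as error bar, against the percent of 75-base transcript words also found in other genes, for the 39 members. PSMC1, PSMA2 and PSMA6 sit at the right with 97.6, 100 and 84.0% shared words and levels of 0.15, 3.35 and 1.99, while PSMB9, PSMA8 and PSMB11 are low with no shared words.

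Summed over the 36 members, proteasome mRNA made up 0.53 to 0.78% of all TPM. The control lines held 7574 TPM in WT, 6302 in WTKD and 6814 in WTOE. The contact mutant lines held 7159 in R248Q, 7781 in R248W, 7751 in R273C and 5917 in R273H. The structural mutant lines ranged from 5312 in Y234C to 7679 in Y163C. The groups overlapped, with means of 6897 ± 640 in control, 7152 ± 872 in contact and 6794 ± 888 in structural lines (SD, n = 3, 4 and 6). When the 50 highest genes were left out and TPM rescaled, Y220C was lowest at 8586 and R273C highest at 10880, and Y234C held 9137.

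The make-up of the sum differed more than its size. Constitutive beta subunits gave 22.5% of the members' TPM in R273H and 30.0 to 47.6% in the other 12 lines, with WT highest. The ratio of 19S to 20S TPM was 1.03 in R273H and 0.89 in Y234C, against 0.49 to 0.69 in the other 11 lines. In R273H the constitutive beta sum was the lowest of all, at 1331 TPM, while its non-ATPase 19S sum of 2300 TPM was among the highest. In Y234C the alpha sum of 687 TPM was the lowest, against 1162 to 2146 in the others.

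**Figure D2:**
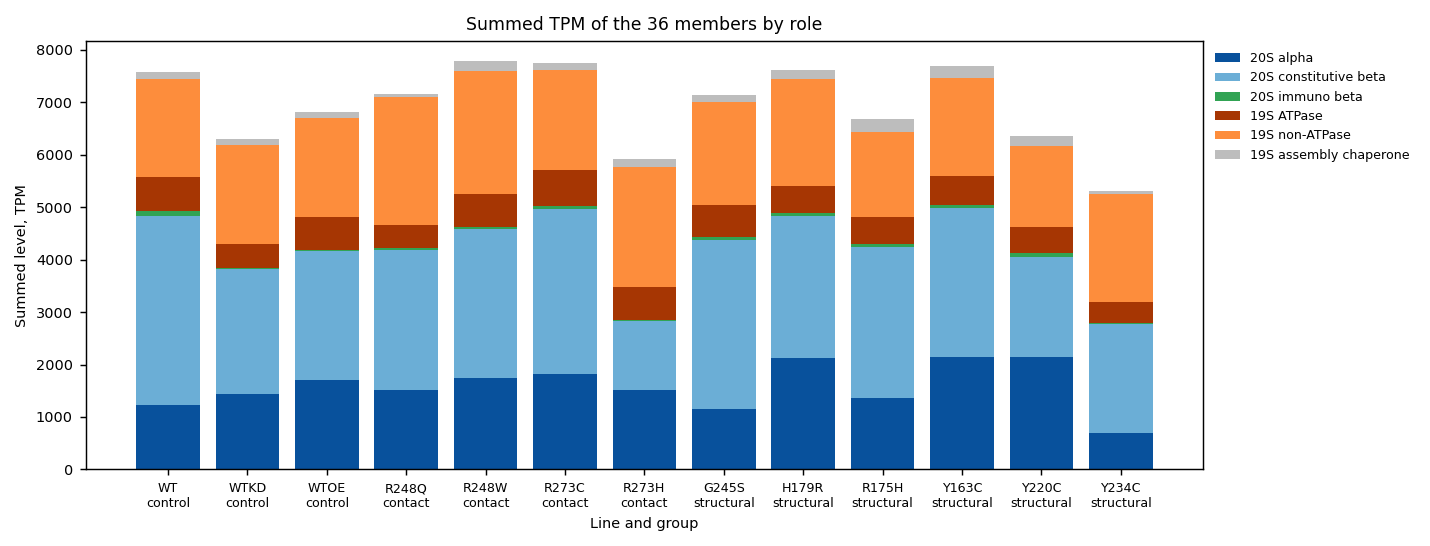
Summed TPM of the 36 members in each of the 13 lines, stacked by role, 1 library per line. R273H (5917) and Y234C (5312) are the shortest bars, and R273H has the smallest constitutive beta share, 22.5%.

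Among the alpha subunits, which form the outer rings, PSMA4 and PSMA6 varied most. PSMA4 was at 5.97 in WT, 6.98 in WTKD and 6.25 in WTOE, at 5.68 in R248Q, 6.69 in R248W, 6.67 in R273C and 5.26 in R273H, and its lowest, median and highest values in the structural lines were 3.80, 7.28 and 7.49. The lowest was Y234C, and the groups overlapped. PSMA6 was at 0.46 in WT, 2.02 in WTKD and 1.23 in WTOE, and at 1.51 in R248Q, 4.04 in R248W, 2.73 in R273C and 0.09 in R273H, with 1.95, 2.30 and 2.69 in the structural lines as lowest, median and highest. R248W was high and R273H close to 0 within the same group. PSMA3 was highest in R273H (9.40) and lowest in Y234C (6.60), with the others between 6.94 and 8.97. PSMA1 was at 4.37 in WT and 6.92 and 6.99 in WTKD and WTOE, so the control lines alone spanned most of its range.

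Of the constitutive beta subunits, R273H had the lowest level of PSMB2, PSMB4, PSMB5, PSMB6 and PSMB7. PSMB6, the beta1 subunit with caspase-like activity, was at 8.26 in WT, 7.88 in WTKD and 6.26 in WTOE, at 7.28 in R248Q, 8.21 in R248W, 7.57 in R273C and 2.97 in R273H, and 6.90, 7.82 and 8.15 in the structural lines. R273H was far below every other line, whose lowest value was WTOE. PSMB5, the beta5 subunit with chymotrypsin-like activity and the main target of bortezomib, was at 9.63 in WT, 8.87 in WTKD and 9.26 in WTOE. It was at 9.10 in R248Q, 9.54 in R248W, 9.18 in R273C and 7.01 in R273H, with 8.18, 9.26 and 9.54 in the structural lines. R273H was again lowest, with Y234C next. PSMB7, the beta2 subunit with trypsin-like activity, was at 10.10 in WT, 8.95 in WTKD and 8.93 in WTOE, at 9.82 in R248Q, 8.92 in R248W, 9.32 in R273C and 7.72 in R273H, and 8.25, 9.07 and 9.69 in the structural lines. WT was highest for each of PSMB5, PSMB6 and PSMB7. PSMB3, a beta subunit without catalytic activity, went the other way, at 9.21 in R273H and at its highest, 9.50, in Y234C, against 8.23 to 9.47 in the other 11 lines.

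The immunoproteasome subunits were lower than their constitutive partners in every line. PSMB8 was at 6.26 in WT, 4.48 in WTKD and 4.08 in WTOE, at 4.94 in R248Q, 5.25 in R248W, 6.10 in R273C and 3.55 in R273H, and 3.29, 5.80 and 6.09 in the structural lines. As a share of PSMB8 and PSMB5 together, PSMB8 made up 2.52% of TPM in WTOE, 2.96% in Y234C, 8.73% in WT, 10.5% in R273C and 14.2% in Y220C, the highest. PSMB9 was listed at 0 in all 3 control lines. It was at 1.73 in R248Q, 1.57 in R248W, 1.84 in R273C and 0.00 in R273H, and at 1.26 in G245S, 1.32 in H179R, 2.54 in R175H, 2.87 in Y163C, 0.58 in Y220C and 0.00 in Y234C. Thus 8 of 10 mutant lines had a value above 0, and R273H and Y234C shared the 0 of the controls. R273H, WT and Y234C were also the lines with the fewest genes above 0, at 12122, 12284 and 12409. Y163C, with the highest PSMB9, had the most, at 15975. WTKD and WTOE, also at 0 for PSMB9, had 14922 and 13405. The part of detection in the PSMB9 values was not tested. PSMB9 never exceeded 2.19% of PSMB9 and PSMB6 TPM, a share reached in Y163C. PSMB10 was at 3.86 in WT, 1.40 in WTKD and 0 in WTOE, at 2.32 in Y163C, and listed at 0 in R273C, R273H, G245S and H179R as well. Depth is unknown, so a value of 0 may be a missed transcript or a failed estimate.

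**Figure D3:**
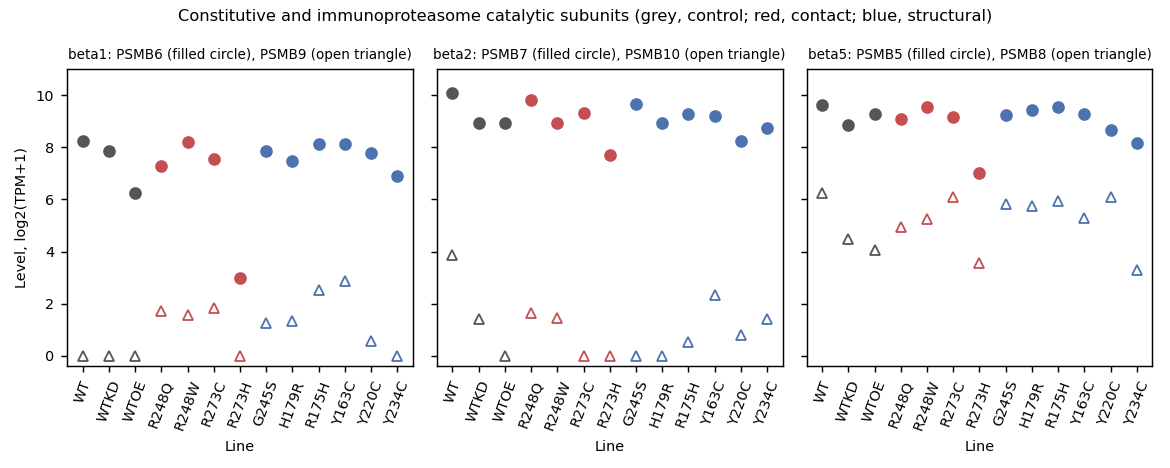
Level, log2(TPM+1), of the constitutive catalytic subunits (filled circles) and their immunoproteasome counterparts (open triangles) in each line, 1 library each. PSMB6 drops to 2.97 in R273H, PSMB9 is at 0 in the 3 control lines and PSMB10 is highest, at 3.86, in WT.

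The 19S ATPases that passed, PSMC2 to PSMC6, had means between 4.89 and 7.48. PSMC5 varied least, from 5.55 in R175H to 7.11 in R273C. PSMC4 was highest in R273H at 8.65, with the others between 6.64 and 8.11, while PSMC2 (5.92) and PSMC3 (6.07) were lowest there. PSMC3 was highest in WT at 8.12, with WTKD at 6.80 and WTOE at 7.26. PSMC6 was lowest in Y234C (3.18) and WT (3.49) and highest in Y220C (5.93). The members of this ring therefore did not share 1 order of lines.

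Among the 19S non-ATPase subunits, Y234C was lowest for PSMD1, PSMD4, PSMD7, PSMD11, PSMD13 and PSMD14 and highest for PSMD6 and PSMD8. PSMD1, the large scaffold of the base, was at 5.08 in Y234C and 7.32 to 8.43 elsewhere. PSMD14, the enzyme that removes ubiquitin chains, was at 4.06 in Y234C and 5.11 to 6.86 elsewhere. PSMD4, a ubiquitin receptor, was at 7.68 in WT, 7.38 in WTKD and 7.07 in WTOE, at 8.40 in R248Q, 7.46 in R248W, 7.21 in R273C and 7.93 in R273H, and 5.39, 7.26 and 7.49 in the structural lines. PSMD6, a lid subunit, was at 8.36 in Y234C, above 5.56 to 6.77 in the other lines. PSMD8, another lid subunit and the most abundant of this class (8.88 ± 0.52), was at 9.98 in Y234C and 9.64 in R273H and at 8.18 to 9.22 elsewhere. PSMD11, which promotes assembly of the complex, was at 7.86 in WT, 8.01 in WTKD and 7.61 in WTOE, at 8.59 in R248Q, 7.76 in R248W, 7.89 in R273C and 8.74 in R273H, and 7.02, 7.56 and 8.11 in the structural lines.

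The 3 assembly chaperones of the 19S base, which leave the finished particle, did not move alike. PSMD5 was at 3.79 in Y234C and 5.44 to 7.12 in the other lines. PSMD9 was at 6.10 in R273H and 2.19 to 4.57 in the other lines. PSMD10, known as gankyrin and a binder of RB1 and MDM2, was at 7.39 in R175H and 4.26 to 6.31 in the others.

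Each line was set against the mean of the other 12. In R273H, 13 of 36 members were lower by 1 or more on the log2 scale (36.1%), beside 37.4% of all tested genes and 30.7% of those with a mean of 5 or more, and 4 were higher (11.1%), beside 11.4% and 9.77%. In Y234C, 14 were lower (38.9%), beside 44.5% and 49.8%, and 2 were higher (5.56%), beside 10.1% and 8.31%. These shares were near those of all genes in both lines, and the medians of the members, -0.84 and -0.80, stood beside -0.72 and -0.86 for all tested genes and -0.53 and -0.99 for those with a mean of 5 or more. In the other 11 lines, 0 to 6 members were higher and 0 to 7 lower, beside 11.9 to 18.2% and 5.21 to 18.5% of all tested genes. Those with the most were WT, with 5 higher (13.9%, beside 14.7%) and 7 lower (19.4%, beside 18.5%), Y163C, with 6 higher (16.7%, beside 15.9%), and Y220C, with 6 higher (16.7%, beside 17.5%). In R273C the members' median was 0.30, beside 0.25 for all tested genes.

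By role, the members did not move evenly in the lines that stood apart. In R273H the median difference from the other lines was -1.23 for constitutive beta, -1.19 for alpha, -0.41 for ATPase and -0.27 for non-ATPase subunits. In Y234C it was -0.42 for constitutive beta, -1.03 for alpha, -0.34 for ATPase and -0.87 for non-ATPase subunits. In Y163C, H179R and Y220C the alpha subunits had medians of 0.88, 0.85 and 0.62, against 0.17, 0.22 and -0.20 for constitutive beta subunits. All tested genes had medians of 0.27, 0.21 and 0.16 in these lines. In WTKD and WTOE alpha was also above beta, at 0.33 and 0.44 against -0.13 and -0.15. The order was the opposite in WT, G245S and R248Q, with alpha at -0.46, -0.38 and -0.63 against 0.69, 0.39 and -0.0088. These are values of single libraries with no test.

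**Figure D4:**
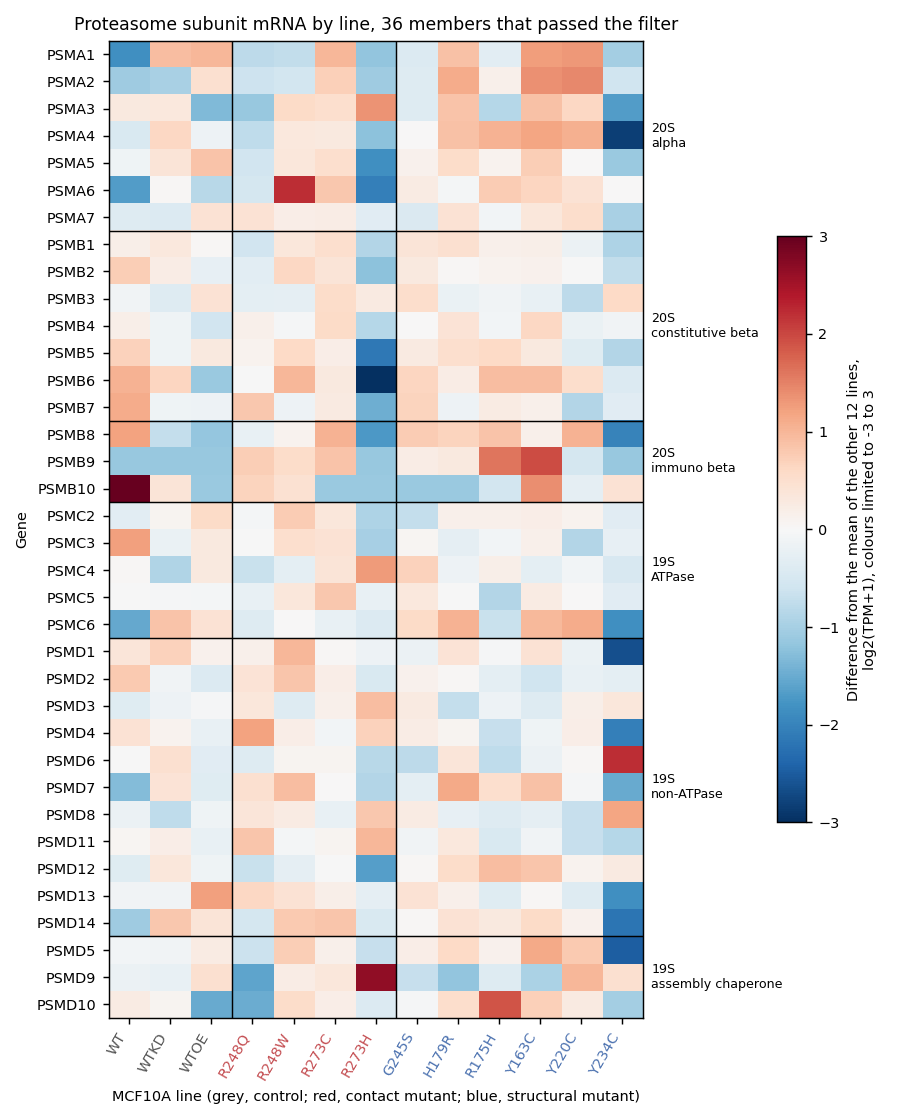
Difference of each member from the mean of the other 12 lines, on the log2(TPM+1) scale with colours limited to -3 to 3, for the 36 members that passed the filter, in order of role. R273H is blue over most alpha and beta subunits and red for PSMA3, PSMC4, PSMD3, PSMD11 and PSMD9, and Y234C is blue for PSMA4, PSMD1, PSMD5 and PSMD14 and red for PSMD6 and PSMD8.

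Related lines were set side by side. Of the mutants at R273, R273C was higher than R273H by 1 or more in 17 of 36 members, beside 44% of all tested genes, and lower in 1, PSMD9, beside 10.4%. The members' median difference was 0.90, beside 0.78 for all tested genes. Of the mutants at R248, R248W was higher than R248Q in 7 members, beside 22.4%, and lower in 0, beside 17.4%. WTKD was higher than WT in 6 members (beside 25.0%) and lower in 4 (beside 15.4%), with a median of -0.01. WTOE was higher than WT in 5 (beside 20.4%) and lower in 7 (beside 18.0%), with a median of 0.02. PSMC6, PSMD14 and PSMA1 were higher, and PSMB7, PSMB8 and PSMB10 lower, than WT in both WTKD and WTOE, 2 comparisons that share the WT library.

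The question of the first comparison was whether mutant lines differ from control lines. No member passed limma's test with Benjamini-Hochberg adjustment over all 14884 genes at 0.05, where 3 genes, or 0.0202%, did. At an unadjusted p under 0.05 there was 1 member, PSMB9, against 719 genes or 4.83% in either direction and 1.93% higher. The members' median difference, mutant minus control, was -0.02, beside -0.08 for all tested genes, and 16 of 36 were above 0, beside 45.0% of all tested genes. With quantile normalization the median was 0.11 with 23 above 0, beside -0.0018 and 49.9% for all tested genes. When libraries were centred on their medians it was 0.15 with 26, beside 0.09 and 55.9%. Without R273H and Y234C it was 0.12 with 21, beside 0.07 and 54.7%. The sign of the members' median was thus not stable. In each of these settings the members' median lay slightly above that of all tested genes, a gap that was not tested.

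PSMB9 had a difference of 1.37 (SE 0.58, 95% interval 0.14 to 2.60, limma adjusted p = 0.93, 10 against 3 lines) on the log2(TPM+1) scale, which understates the change of low genes. PSMA6 followed at 0.99 (SE 0.62) and PSMB10 at -0.94 (SE 0.70), each with limma adjusted p = 0.93. For PSMB10, WT alone gave the sign, and without it the difference was 0.12. PSMC3 was at -0.53 (SE 0.44), and the difference was -0.17 without WT. The other members of lowest p were PSMA2 (0.63), PSMD8 (0.42), PSMD7 (0.50), PSMA5 (-0.45), PSMD1 (-0.47) and PSMD13 (-0.40), with intervals that all included 0. Without WT, PSMA6 was at 0.60, PSMA2 at 0.37 and PSMD7 at 0.09. PSMD8 was at 0.23 without WTKD, PSMA5 at -0.23 and PSMD13 at 0.0084 without WTOE, and PSMD1 at -0.21 without Y234C. Constitutive catalytic subunits were at -0.34 for PSMB5, -0.23 for PSMB6 and -0.34 for PSMB7, with 95% intervals of -1.44 to 0.77, -2.05 to 1.59 and -1.36 to 0.69. PSMB8 was at 0.26, with an interval of -1.13 to 1.65. In no member were the groups separate, beside 149 genes or 1% of all tested.

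The question of the second comparison was whether mutants of DNA-contacting residues differ from structural mutants. No gene and no member passed the adjusted limma test, a background of 0%, and 1 member was under an unadjusted p of 0.05, beside 734 genes or 4.93%. That member was PSMD12, a scaffold subunit of the lid whose WTOE promoter peak is shown above. PSMD12 was at 6.40 in WT, 7.06 in WTKD and 6.63 in WTOE and at 6.14 in R248Q, 6.51 in R248W, 6.73 in R273C and 5.23 in R273H, while the structural lines had 6.79, 7.14 and 7.60 as lowest, median and highest. Every contact line was below every structural line, and the control lines lay across the gap. The difference was -1.02 (SE 0.45, 95% interval -1.99 to -0.05), with an unadjusted limma p of 0.041 and an adjusted p of 0.96. Without R273H it was -0.71. Groups did not overlap in this direction for 39 genes, or 0.262% of all tested, and in either direction for 153, or 1.03%.

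The members' median difference, contact minus structural, was -0.07, beside 0.01 for all tested genes, and 17 of 36 were above 0, beside 50.4%. Without R273H it was 0.13, beside 0.18 for all tested genes. Without R273H and Y234C it was 0.09 with 23 above 0, beside 0.04 and 52.1% for all tested genes. With all mutant lines in, 9 of the 11 non-ATPase subunits were above 0, with a median of 0.31. Of the constitutive beta subunits 1 of 7 was, and of the alpha subunits 2 of 7, with medians of -0.14 and -0.42. This split by role includes R273H and Y234C and is not given without them. Without R273H, the constitutive beta subunits PSMB5 and PSMB7 turned above 0. PSMD11 was at 0.72 (SE 0.44) and PSMD4 at 0.83 (SE 0.52, or 0.52 without Y234C), each with limma adjusted p = 0.97. PSMB6 was at -1.21 (SE 0.83), and at -0.04 without R273H. PSMA2 (-0.84), PSMA1 (-0.65), PSMD10 (-0.63), PSMD13 (0.52), PSMD1 (0.57) and PSMD2 (0.41) were next. Without Y234C, PSMD1 was at 0.15 and PSMD13 at 0.24. PSMD10 was at -0.25 without R248Q, and PSMD2 at 0.23 without R248W. PSMA1 was at -1.09 without R273C and -0.42 without R273H. PSMB5 was at -0.35 and PSMB7 at -0.07, and these were 0.22 and 0.34 without R273H. PSMB8, PSMB9 and PSMB10 were at -0.40, -0.14 and -0.07. Basal epithelial markers moved with this comparison, since 4 of 10, KRT17, TP63, ITGA6 and CDH1, were lower in contact lines at an unadjusted p under 0.05 (lowest limma adjusted p = 0.76), beside 2.07% of all tested genes. Their part in the members' values was not tested.

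**Figure D5:**
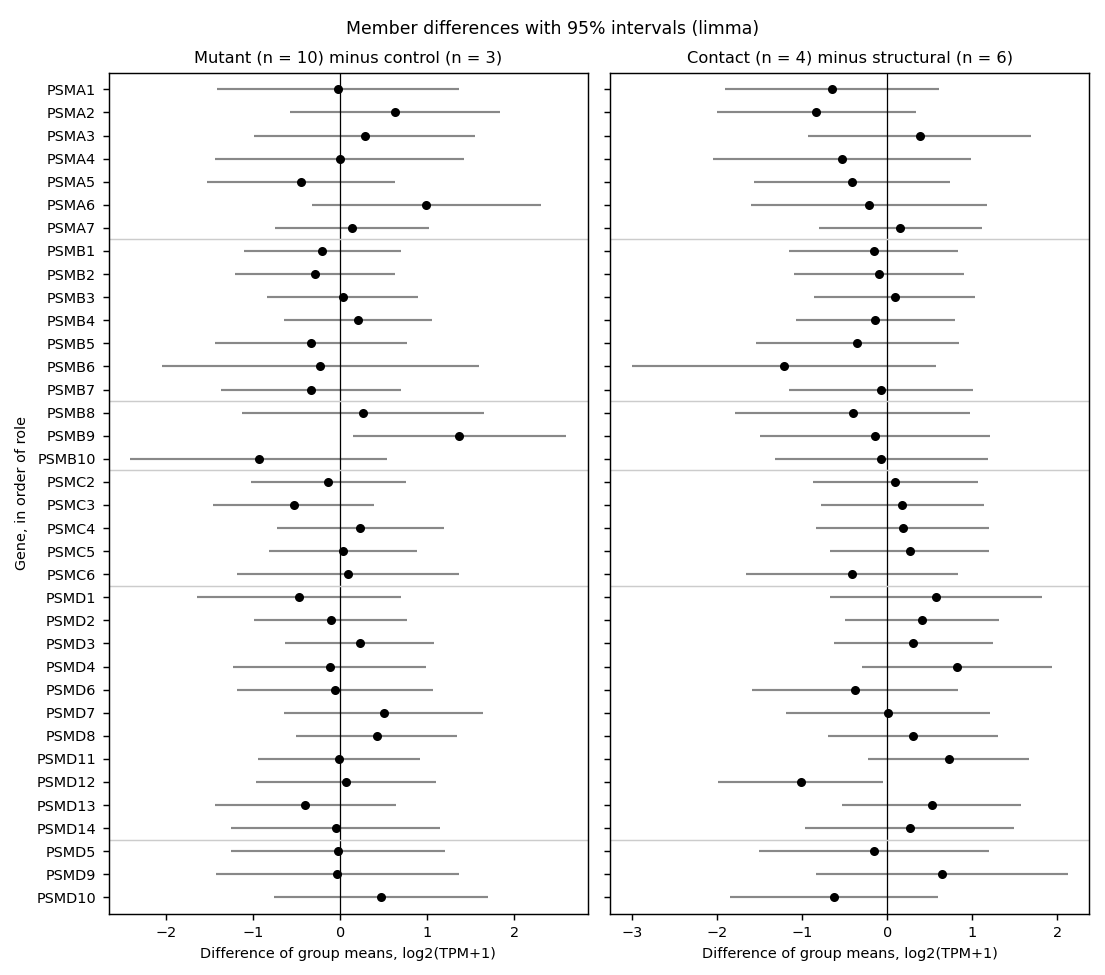
Difference of group means on the log2(TPM+1) scale for the 36 members, with 95% limma intervals, for mutant minus control lines (10 against 3) and contact minus structural mutants (4 against 6). All intervals include 0 except PSMB9 on the left (0.14 to 2.60) and PSMD12 on the right (-1.99 to -0.05), before adjustment over genes. PSMB9 passed the filter through mutant lines alone.

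Other genes of the pathway, in lists for assembly factors, activators and the inhibitor, 19S partners, transcription regulators, shuttle factors and ubiquitin, gave no call in either comparison. All 33 listed genes passed the filter, and 0 of 33 were under an unadjusted p of 0.05 in mutant versus control lines (15 above 0, median -0.11) or in contact versus structural mutants (16 above 0, median -0.05). The genes of lowest p were the ubiquitin gene UBB (1.17), the assembly factor PSMG3 (-1.18) and PAAF1 (1.15), a 19S-binding factor, in the first, and NGLY1 (-1.57), the enzyme that activates NFE2L1, the assembly factor POMP (-1.11) and PAAF1 (-0.99) in the second. NFE2L1 itself varied little, from 5.73 in R273H to 6.92 in R248Q. PSMG3 was lowest in R273H at 2.87, against 4.03 to 6.95 elsewhere, and the 11S activator PSME1 was highest in Y220C at 10.60 and lowest in R273H at 6.89. Of the control lines, UBB was at 5.57 in WT, 5.82 in WTKD and 3.36 in WTOE. PAAF1 was at 0.31 in WT, 3.70 in WTKD and 0.49 in WTOE. NGLY1 was at 1.47 in R273H and 7.65 in R175H. The differences of these genes with 1 line left out are not given.

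Of 10 genes of antigen processing and interferon response, 8 were above 0 in mutant versus control lines (median 0.56), beside 45.0% of all tested genes. In this list 1 gene, HLA-C, was under an unadjusted p of 0.05, beside 4.83% of all tested genes, at 1.06 (SE 0.43, limma adjusted p = 0.93). B2M was at 0.97 and IRF1 at 1.09, while TAP1, whose start lies beside PSMB9, was at -0.82. In contact versus structural mutants 7 of 10 were above 0 (median 0.44), beside 50.4%, with HLA-B at 1.51, and none under that p. HLA-B was at 0.84 in Y234C and at 3.70 to 5.75 in the other structural lines.

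The members followed one another over the 13 lines only loosely. Over the 630 pairs of members the median Pearson r was 0.19, and over pairs of a member with any other tested gene it was 0.14. It was 0.08 and 0.03 without R273H and Y234C, and 0.07 and 0.01 after quantile normalization. Within the alpha subunits the median was 0.52 (0.35 without these lines), within the constitutive beta subunits 0.63 (0.30), within the ATPases 0.16 (0.11) and within the non-ATPase subunits 0.05 (0.079). For other complexes it was 0.77 for the CCT chaperonin (0.29 without these lines), 0.25 for eIF3 (0.0043) and -0.03 for the COP9 signalosome (0.015), which resembles the 19S lid. All points share 1 library per line and the same scaling to TPM. The closest pair was PSMA4 with PSMD5 (r = 0.92) and the most opposed PSMA4 with PSMD8 (r = -0.88). PSMD5 (0.89), PSMB1 (0.88) and PSMA4 (0.88) followed the mean of the other constitutive members most closely, and PSMD8 (-0.77), PSMD3 (-0.70) and PSMD9 (-0.52) ran against it. Without R273H and Y234C these were 0.77, 0.62 and 0.62, and -0.24, -0.49 and 0.06.

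Outside the members, genes most like the mean of the 33 constitutive members over the 13 lines included NRAS (r = 0.97, or 0.93 without R273H and Y234C), ZDHHC2, FNTA, GAPVD1, CHMP3, MAGT1, NPC2, PARP8 and FAM69A, with r from 0.949 for FAM69A upwards. Those most like the mean of PSMB8, PSMB9 and PSMB10 were AC092835.1 (r = 0.91), SCNN1G, ZNF529, METTL17, RPL13AP7, CXXC5, NLRC5 (0.84), SPIRE2, CINP and BRF1. PSMB8, PSMB9 and PSMB10 did not share 1 pattern. Their median pairwise r was 0.15, beside 0.14 with any other tested gene, and PSMB9 with PSMB10 was at -0.04. The levels of PSMB9 and PSMB10 were low, with means of 1.05 and 1.03. NLRC5 is the transactivator of HLA class I genes and was at 0 in R273H and 3.39 in R175H.

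V5 peaks near the start were rare among members and among all tested genes alike. A peak that overlapped the window from 2500 bp before to 100 bp after the start by at least 1 base was found for 2 of 39 members in WTOE, beside 3.08% of tested genes, and for 1 in R273H, beside 1.24%. There was none in Y220C (beside 0.0744%), R273C (0%) or Y234C (0.602%). In WTOE, the peak at PSMD12 (chr17:67366222-67366659) had a fold enrichment over input of 3.30 and a -log10 q of 2.09, with its summit 48 bp after the start. The peak at PSMB6 (chr17:4793474-4793876) had 2.86 and 1.41, with its summit at -2559 bp, outside the window that its edge overlapped. In R273H, the peak at PSMD1 (chr2:231056644-231057089) had 3.44 and 1.54, with its summit at -133 bp. The promoters of PSMD12 and PSMD1 shown above hold 82 and 223 bases of these peaks, and neither holds a p53 decamer. In the lines with a peak, PSMD12 was at 6.63 in WTOE and PSMD1 at 7.36 in R273H, both inside the range of the other lines. With 1 list per line and lists of 733 to 25309 peaks, a missing peak says little about binding.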

How the data were processed

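RNA of 13 MCF10A lines and V5 ChIP of 5 lines were used, 1 library or list each, grouped by the submitters' labels and, for contact and structural residues, by the study's classes. Per the study's methods, the authors mapped RNA reads to GRCh38 (Ensembl release 92) with STAR and took its gene counts, mitochondrial transcripts were taken out, and the deposited values are log2(TPM+1). Duplicates were marked and kept, and counts without them served the authors as a reference for overestimated levels. The study reports that duplication rates were high and that mitochondrial RNA took a large and varying part of the reads in every sample. No counts were used, so depth is unknown and, with these 2 features, limits every low value. In the ChIP arm, Bowtie2 2.1.0 alignments filtered by SAMtools 1.7 went into MACS2 (version 2.1.2.20181017, q limit 0.05, input as control). The deposited fold enrichment is the ratio of ChIP to input at a summit, and the deposited score, -log10 p and -log10 q values come from the same caller.

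The 14884 genes with 1 or more in at least 3 lines were fitted with limma 3.58.1 in R 4.3.3, two-sided, with Benjamini-Hochberg adjustment over all of them and no covariate, and the fit was tested on simulated data. Tables were made with Python 3.11.15, pandas 2.3.3 and numpy 2.4.6. Coordinates and shared 75-base words came from GENCODE v44, which holds 98.9% of the table's genes and is a later release than the authors used, and promoters from RefSeq. The members and lists were chosen with earlier results of these data known. Genes named are the catalytic and immunoproteasome subunits, the 10 members of lowest p in each comparison, the 3 highest and lowest in mean and in SD, members under the filter, the 3 genes of lowest p among other proteasome genes, and the 10 genes most like each mean. Further genes named beside these were picked after their values were seen. Some genes that these rules name, and the level of the altered gene, are not reported here. Alternatives were no filter, a filter in all 13 lines, a pseudocount of 0.1, quantile normalization, centring on library medians, a covariate for genes detected, a trended and robust fit, leaving out each line, and leaving out R273H and Y234C.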

Additional observations from a re-analysis of the deposited data

Results flagged for a closer look

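Values far from the rest of their group were looked for in 74 sets, the 36 members and their summed TPM in the 4 contact and in the 6 structural mutant lines, and chance alone flags about 1 in 20 such sets. A group of 3 lines was not examined. A value stood apart in 8 sets, of which 7 were in Y234C, the line whose 50 highest genes took 46.8% of all TPM. In Y234C the log2(TPM+1) was 3.80 for PSMA4 (next structural line 6.40), 3.79 for PSMD5 (6.18), 4.06 for PSMD14 (6.11) and 7.24 for PSMB2 (7.92). It was 5.08 for PSMD1 (7.32), 5.63 for PSMD13 (6.97) and 3.29 for PSMB8 (5.28). In the contact mutant lines PSMB9 was at 0 in R273H, below 1.57 in R248W. The part of library composition in these values was not tested. PSMB6 in R273H, at 2.97, did not reach the limit for 4 values.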

How the results depend on the processing

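No paired analysis was possible because each line had 1 library and the labels carry no replicate numbers. No member was called under any alternative in either comparison, including each leave-one-out fit, and of 559 values of named members under alternatives 537 kept their direction, 22 turned and 0 were called. Genes called in mutant versus control lines, 3 as reported, were 5 without the filter, 0 with a filter in all 13 lines, 6 with a pseudocount of 0.1, 0 when centred on library medians, 5 with genes detected as a covariate and 8 without R273H and Y234C. With 1 line left out they ran from 0 (without R248W, G245S, H179R, Y163C or Y220C) to 11 (without WTKD), with 1 without WTOE or R248Q, 8 without WT, 7 without R273H and 6 without Y234C. In contact versus structural mutants, 0 as reported, they were 1 without the filter, 5 with a pseudocount of 0.1, 1 without R273H and Y234C, and 0 to 1 with 1 line left out, the 1 without R273H or without R175H. Leaving out both R273H and Y234C turned PSMB6 to 0.35 in mutant versus control lines, and in contact versus structural mutants PSMB5 to 0.039, PSMB7 to 0.28, PSMB9 to 0.0014 and PSMB10 to 0.30. With 1 line left out, mutant minus control differences ran from -1.81 (without WTOE) to 0.12 (without WT) for PSMB10, -0.61 to 0.0084 for PSMD13, -0.83 to 0.24 for PSMB6, -0.54 to 0.053 for PSMB7 and -0.17 to 0.92 for PSMB8. Contact minus structural differences ran from -0.63 to 0.22 for PSMB5, -0.37 to 0.34 for PSMB7, -0.82 to 0.066 for PSMB8, -0.43 to 0.29 for PSMB9, each highest without R273H, and -0.36 to 0.23 for PSMB10. The members' median difference ran from -0.07 to 0.08 in mutant versus control and -0.18 to 0.13 in contact versus structural lines. The difference of their mean summed TPM ran from -257 (without WTKD) to 379 (without WT), beside 40.6 over all lines, and from 61.1 (without Y234C) to 769 (without R273H), beside 358. The median r between members was 0.080 without R273H and Y234C, 0.072 after quantile normalization, and 0.12 to 0.24 with 1 line left out. Within 5000 bp of the start, members with a peak numbered 2 in R273H and 1 in Y234C, with PSMD4 added in both, beside 2.97 and 1.44% of tested genes. In WTOE they stayed at 2, beside 7.70%. At a -log10 q of 2 or more in the first window they numbered 0 in R273H, beside 0.845% of tested genes. In WTOE there was 1, PSMD12, beside 1.54%. The leave-one-out values of the sums and of r were added after seeing the data. For these changes the cause was not tested, and the unknown depth limits PSMB9, PSMB10, PSMA6 and PSMC1 most.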

Other observations

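Pseudogenes of the members had 30 rows in the table, and 20 of them had a value above 0 in at least 1 line. Their summed level ran from 2.54 TPM in WTOE to 38.5 TPM in R248W, so adding them left the members' sums nearly as they were. Among other large cytosolic complexes, 0 of 8 CCT chaperonin genes were above 0 in mutant minus control lines, with a median of -0.42 and no gene under an unadjusted p of 0.05 (limma). For eIF3, 3 of 13 were above 0 (median -0.15), and for the COP9 signalosome 1 of 9 (median -0.15), beside 45.0% of all tested genes. In contact minus structural mutants COPS6, a subunit of the COP9 signalosome, was at 0.98 (limma adjusted p = 0.96).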
